A study of Homo sapiens with 46 samples.

Results

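HCT116 cells, a line from a human colon carcinoma, were held on an inhibitor of the cyclin-dependent kinases CDK4 and CDK6 for 4 days, and the Ku80 protein was degraded in one arm. The members are all genes of 6 libraries, out of 46 in the series: 3 clones of Ku80-AID cells (numbered 1, 7 and 9) with the inhibitor alone and the same 3 clones with the inhibitor, indole-3-acetic acid (IAA) and doxycycline. They were chosen by these sample labels, and of 61228 genes listed 18877 passed a filter on low counts and were tested. In Ku80-AID cells Ku80 carries an auxin-inducible degron, so 100 µM IAA with 0.5 µg/mL doxycycline removes the protein. The control arm had neither compound, so the comparison holds IAA, doxycycline and Ku80 loss together. Both arms share the genotype and the inhibitor, whose name and dose the labels do not give. Each clone served as its own control, and each clone is 1 derivative of the same line. For comparison, the same clones were used with IAA and doxycycline for 4 days without the inhibitor, set against 2-day DMSO controls (3 clones per arm), and clones 1 and 9 with the inhibitor for 2 days, with and without IAA and doxycycline. Below, "IAA" stands for IAA with doxycycline.

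Ku is a ring of Ku70 and Ku80 that threads onto DNA ends and recruits the DNA-PK catalytic subunit for end joining. It also binds RNA, and the series asks how Ku restrains RNA-driven innate immunity in human cells. In that branch of immunity the cytosolic receptors RIG-I (gene RIGI) and MDA5 (IFIH1) bind double-stranded RNA and signal through MAVS to interferon regulatory factors. Secreted interferon then acts through STAT2, IRF9 and their partners to switch on a broad set of interferon-stimulated genes. CDK4/6 inhibitors stop the phosphorylation of RB and hold cells before S phase, so the inhibitor arms show the response to Ku80 loss in cells under a cell-cycle brake.

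The 3 libraries with the inhibitor alone held 17.9, 22.1 and 20.3 M (mega) estimated counts for clones 1, 7 and 9, and those with IAA 11.9, 18.3 and 9.53 M. Each clone was thus sequenced less deeply after IAA. The inhibitor-alone library of clone 9 stood apart from the other 2 of its group: 16.1% of its counts came from mitochondrially encoded genes against 8.67% in the lowest. Its counts differed from those of clones 1 and 7 by a chi-square of 65.4 and 69.3 per degree of freedom, against 9.83 between clones 1 and 7. Results that it decides are also given without it. Epithelial EPCAM (321.8 and 296.6 CPM on average without and with IAA), KRT8 and KRT18 were present, and 8 colon epithelial markers summed to 2470 to 3080 CPM (counts per M) over the 6 libraries. CDH17 was at 0 in all 6. VIL1 was at 0 after IAA. Blood cell markers summed to 3.17 to 4.42 CPM with the inhibitor alone and 3.71 to 6.7 CPM with IAA, with PTPRC, CD3E and MS4A1 at 0 in both arms. Fibroblast and endothelial markers summed to 20.9 to 27.5 and 28.2 to 35.6 CPM. XRCC5, which encodes Ku80, is no check of depletion here because the degron acts on the protein: 346, 329 and 262 CPM with the inhibitor alone and 265, 275 and 253 CPM with IAA, a change of -0.24 ± 0.13 (adjusted p = 0.276).

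After 4 days on the inhibitor, interferon-stimulated genes were higher with IAA in all 3 clones, and genes of DNA replication and mitosis were lower than with the inhibitor alone. Of 18877 genes, 2538 (13.4%) changed, 1332 up (7.06%) and 1206 down (6.39%), by edgeR's quasi-likelihood test with Benjamini-Hochberg adjustment at 0.05. At least 2-fold changes were found for 258 of those that rose and 223 of those that fell. The libraries of the 2 arms did not overlap for 5912 genes (31.3%). Log2 fold changes stand with ± 1 standard error, and the median over all genes was -0.02. On the TPM scale (a share of transcripts scaled by gene length, tested with limma) 77.8% of the calls were upward against 52.5% here. The test, the scaling of libraries and the length scale all changed together there. Which of them moved the balance of rises and falls was not tested. A change in RNA per cell and a change in the share of cells of one state cannot be told apart in these bulk libraries.

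All but CEMIP and PKD1P1 of the 15 largest rises among genes with at least 5 CPM in 1 arm were on the interferon list. They ran from 3.63 for IRF7 to 6.45 for XAF1 on the log2 scale. Of the 84 interferon-stimulated genes tested, 75 rose, none fell and 9 did not pass, with a median change of 1.82 against -0.02 for all genes. The arms did not overlap for 78 of them. The list's count of rises ran from 70 to 75 over all alternatives tried. The 9 that did not pass were APOBEC3B, APOBEC3F, APOBEC3G, IFITM2, NT5C3A, SLFN11, TRIM22, TYMP and ZC3HAV1, which are named after their values were seen.

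The promoters of 4 of the interferon-stimulated genes described next are shown because they carry the letter pattern known as the interferon-stimulated response element, to which interferon regulatory factors and complexes of STAT2 with IRF9 bind. The pattern searched was GAAANNGAAA on both strands, where N is any base, in the 250 bases before each annotated start (RefSeq, GRCh38.p14). Capitals mark the matches, overlapping ones included, and each sequence reads 5′ to 3′ on the gene's strand.
IFI6, chr1:27672251-27672373, minus strand, bases 181 to 59 before the start: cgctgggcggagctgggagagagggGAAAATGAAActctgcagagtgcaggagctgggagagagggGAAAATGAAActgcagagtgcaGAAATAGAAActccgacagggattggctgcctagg
IFIT1, chr10:89392482-89392554, plus strand, bases 141 to 69 before the start: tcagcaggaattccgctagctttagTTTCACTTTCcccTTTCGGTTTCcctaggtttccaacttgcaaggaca
ISG15, chr1:1013359-1013424, plus strand, bases 138 to 73 before the start: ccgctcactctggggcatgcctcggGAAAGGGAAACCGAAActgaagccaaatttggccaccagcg
OAS3, chr12:112938306-112938473, plus strand, bases 168 to 1 before the start: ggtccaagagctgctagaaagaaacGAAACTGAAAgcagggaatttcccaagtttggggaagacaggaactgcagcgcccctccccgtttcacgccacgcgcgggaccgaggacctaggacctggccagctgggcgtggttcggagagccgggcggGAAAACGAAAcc
Of 35116 such windows, 1061 (3.02%) held the pattern. Among genes that could be matched to a window by symbol, 33 of 58 interferon-stimulated genes that rose (56.9%) held it, against 36 of 987 other genes that rose (3.65%), 18 of 931 that fell (1.93%) and 316 of 10162 that did not pass the test (3.11%). IFI6 held 3 matches and IFIT1, ISG15 and OAS3 2 each. A match describes the letters only.

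RNA sensors were among the genes that rose. RIGI, the RIG-I receptor, read 37.8, 32.1 and 28.8 CPM with the inhibitor alone and 161, 183 and 168 CPM with IAA, a log2 fold change of 2.39 ± 0.19 (adjusted p = 1.07e-08). IFIH1, which encodes MDA5, read 22.5, 24.5 and 21.8 CPM with the inhibitor alone and 88.9, 111 and 107 CPM with IAA (2.15 ± 0.20, adjusted p = 1.58e-07). Every library with IAA lay above every library without it for both. The third receptor of this family, DHX58 (LGP2), had few reads, 12 counts in the inhibitor arm and 82 with IAA, and rose by 3.03 ± 0.89 (adjusted p = 0.0255). That call was lost on the TPM scale and when any library other than the IAA library of clone 9 was left out, with adjusted p up to 0.11. The endosomal receptor TLR3 read 10.7, 9.19 and 10.9 CPM with the inhibitor alone and 21.5, 23.5 and 23.3 CPM with IAA (1.15 ± 0.25, adjusted p = 0.00268). EIF2AK2, which encodes the double-stranded RNA-activated kinase PKR, rose from 242, 236 and 213 to 429, 498 and 483 CPM (1.03 ± 0.11, adjusted p = 6.41e-07). ADAR, the enzyme that edits adenosines in double-stranded RNA, rose by 0.57 ± 0.08 (adjusted p = 2.56e-05). MAVS, the adaptor below RIG-I and MDA5, read 327, 335 and 422 CPM with the inhibitor alone and 378, 381 and 353 CPM with IAA, and its arms overlapped (0.04 ± 0.13, adjusted p = 0.927). Of 29 RNA-sensing genes tested 13 rose and 1 fell, where 7.06% of all genes rose and 6.39% fell. Among 12 genes of DNA sensing 3 rose (DNASE2, IRF3 and SAMHD1) and 1 fell (BANF1). A fall of 1 gene in either list is near the share over all genes. On the TPM scale 12 RNA-sensing and 2 DNA-sensing genes rose, and none of either list fell. STING1 read 24.6, 25.1 and 28 CPM with the inhibitor alone and 22.4, 22.7 and 22 CPM with IAA (-0.22 ± 0.26, adjusted p = 0.683), and CGAS had 3 counts summed over each arm.

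Transcription factors of the pathway followed. STAT2 rose from 61, 51.4 and 51.1 to 155, 165 and 177 CPM (1.61 ± 0.10, adjusted p = 8.44e-11) and its partner IRF9 by 1.46 ± 0.20 (adjusted p = 2.85e-05). IRF7, the factor that amplifies interferon production, read 1.64, 2.87 and 4.69 CPM with the inhibitor alone and 41.4, 35.3 and 38.5 CPM with IAA (3.63 ± 0.31, adjusted p = 3.69e-08). The change of IRF3, which is constitutively present and acts below MAVS, was 0.73 ± 0.13 (adjusted p = 0.000682). IRF1 read 21.5, 26 and 20.9 CPM with the inhibitor alone and 25.5, 30.0 and 36.4 CPM with IAA, with overlapping arms (0.41 ± 0.17, adjusted p = 0.115).

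Antiviral effectors were among the largest rises. IFI6, an interferon-induced membrane protein, read 11.3, 12.2 and 11.4 CPM with the inhibitor alone and 444, 444 and 337 CPM with IAA (5.13 ± 0.20, adjusted p = 8.25e-14). IFIT1, which binds RNA that lacks cap methylation, read 9.38, 8.81 and 11.6 CPM with the inhibitor alone and 161, 184 and 201 CPM with IAA (4.21 ± 0.18, adjusted p = 5.73e-13), and its relatives IFIT2 and IFIT3 rose by 2.29 ± 0.28 and 2.58 ± 0.25. In the family of 2′-5′ oligoadenylate synthetases, which sense double-stranded RNA, OAS3 had the highest starting level: 92.7, 93.4 and 94.3 CPM with the inhibitor alone and 436, 542 and 531 CPM with IAA (2.43 ± 0.11, adjusted p = 1.55e-12). OAS1 read 1.41, 0.895 and 2.18 CPM with the inhibitor alone and 69.1, 46.4 and 47 CPM with IAA (5.20 ± 0.45, adjusted p = 4.26e-08). OAS2 went from 8 to 200 summed counts and OASL rose by 3.09 ± 0.26 (adjusted p = 2.87e-08). On the per-length TPM scale, IFI6 averaged 27.3 with the inhibitor alone and 1023 with IAA, above ISG15 (482 TPM with IAA) and OAS3 (131).

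ISG15, a ubiquitin-like modifier, read 12.6, 13.9 and 18.1 CPM with the inhibitor alone and 193, 131 and 130.3 CPM with IAA (3.33 ± 0.22, adjusted p = 6.47e-10). USP18, the protease that removes ISG15 and restrains interferon receptor signalling, rose from 5.98, 6.08 and 5.4 to 34, 43.3 and 45.3 CPM (2.81 ± 0.16, adjusted p = 6.6e-11). PARP9 and its partner ubiquitin ligase DTX3L rose by 2.20 ± 0.14 and 1.82 ± 0.11, and PARP14 by 1.65 ± 0.10. LAMP3, a lysosome-associated membrane protein, read 2.87, 3.3 and 3.27 CPM with the inhibitor alone and 28.9, 26.4 and 32 CPM with IAA (3.20 ± 0.20, adjusted p = 2.28e-10). Several effectors were almost silent before IAA. XAF1, a binding partner of the apoptosis inhibitor XIAP, had 9 counts summed over 3 libraries and 625 with IAA, a ratio of depth-scaled sums of 98.3 (95% counting interval 51.5 to 216). IFI44L went from 11 to 465 counts (59.9, interval 33.1 to 120.7), SAMD9L from 25 to 424 and RSAD2, the antiviral enzyme viperin, from 13 to 232. IFI27 went from 44 to 503 counts (the call of MX1, from 84 to 153 counts, held in only 5 of 14 alternatives).

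**Figure D1:**
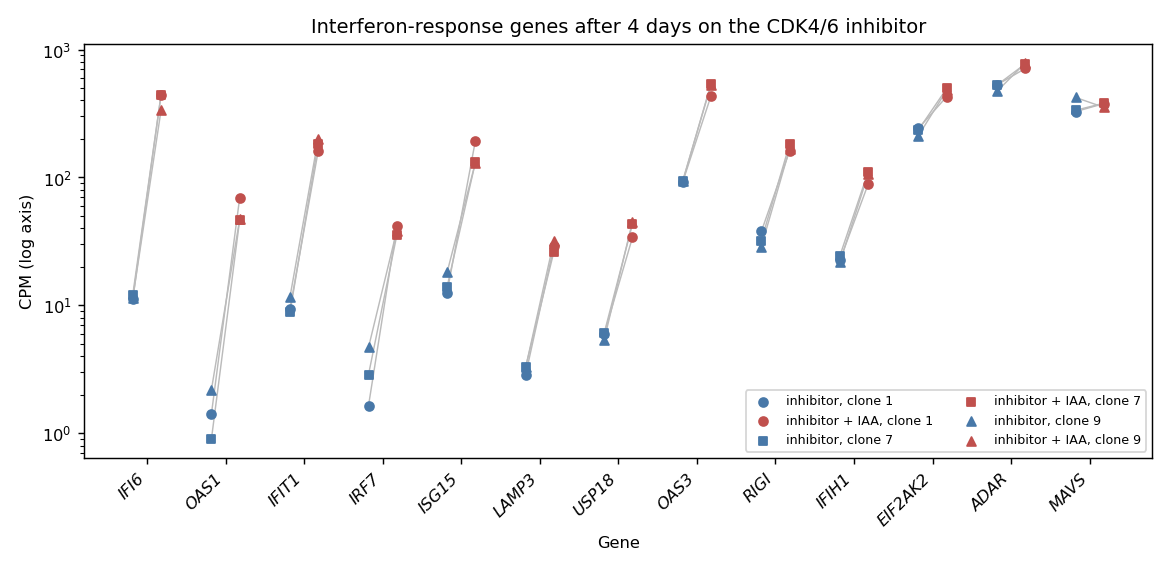
Level in CPM (log axis) of 13 genes of the interferon response in each library, with the inhibitor alone (blue) and with IAA (red) after 4 days; lines join the arms of 1 clone. All 3 IAA libraries lie above all 3 controls for every gene drawn except MAVS.

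The ligands themselves were near the limit of detection. IFNB1 had 0 counts in all 6 libraries, which allows up to 3 counts per group. IFNL1 had 1 count with the inhibitor alone and 14 with IAA (ratio 19.8, interval 3.02 to 838.2). IFNL2 went from 6 to 19 counts and IFNL3 from 3 to 18, but these copies are nearly identical and their reads may be split between them. Of 12 ligand and receptor genes that passed the filter, 3 rose: the receptor chains IFNLR1 (0.65 ± 0.17, adjusted p = 0.00966), IL10RB (0.71 ± 0.19, adjusted p = 0.0125) and IFNGR1 (0.31 ± 0.10, adjusted p = 0.0475). IFNGR1 lost its call when any 1 of the 6 libraries was left out, IFNLR1 without the IAA library of clone 1, and IL10RB without the inhibitor-alone library of clone 9 or the IAA library of clone 7. IFNLR1 and IL10RB form the receptor for type III interferon.

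Chemokine and cytokine genes were low. CCL5, a lymphocyte attractant, had 20 and 69 counts over the arms and did not pass (2.20 ± 0.86, adjusted p = 0.102) except on the TPM scale and in a fit of only the compared groups. CXCL8 had 15 and 40 counts and passed (1.84 ± 0.57, adjusted p = 0.0322), but lost that call on the TPM scale and without any 1 library other than the IAA library of clone 9 (adjusted p up to 0.219). CXCL10 had 3 and 10 counts, and IL6 4 and 0. Of 16 cytokine genes tested 5 rose, but 2 did without the inhibitor-alone library of clone 1 or 9, and 3 without the IAA library of clone 1 or 7. Of 28 NF-kB genes 2 rose and 2 fell, near the shares over all genes (7.06% and 6.39%), and none fell on the TPM scale.

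Antigen presentation rose as well: 15 of 21 genes up, none down, with a median of 0.76. HLA-B, a class I heavy chain, read 70.5, 91 and 103 CPM with the inhibitor alone and 246, 233 and 237 CPM with IAA (1.44 ± 0.13, adjusted p = 4.77e-08). HLA-C rose by 1.34 ± 0.12 and HLA-E by 1.01 ± 0.08. B2M, the invariant light chain, read 438, 415 and 381 CPM with the inhibitor alone and 697, 689.5 and 696 CPM with IAA (0.75 ± 0.13, adjusted p = 0.000296). The peptide transporters TAP1 and TAP2 rose by 1.34 ± 0.12 and 1.11 ± 0.10. Class I chains share sequence, so the split of reads between them is uncertain.

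Outside the interferon list, CEMIP, which acts in hyaluronan breakdown, read 8.74, 12.2 and 5.62 CPM with the inhibitor alone and 231, 261 and 173 CPM with IAA (4.67 ± 0.22, adjusted p = 1.55e-12). THSD7A, a membrane protein with thrombospondin repeats, had 1 count in the inhibitor libraries and 139 with IAA (ratio 197, interval 34.8 to 7829). PKD1P1, a pseudogene that is nearly identical to parts of PKD1, read 2.64, 0 and 0 CPM with the inhibitor alone and 12.5, 11.9 and 15 CPM with IAA and is uncertain. Its call was lost with DESeq2 and without any 1 library other than the inhibitor-alone library of clone 1. The lysosome and autophagy list gave 18 rises and no fall among 28 genes, median 0.44. CTSB, a lysosomal protease, rose from 225, 274 and 205 to 446, 446 and 403 CPM (0.88 ± 0.09, adjusted p = 6.19e-07). NEU1, GABARAPL1, PSAP and GRN rose by 0.84, 0.86, 0.68 and 0.83.

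Among stress and growth-arrest genes, GDF15, a secreted stress cytokine, rose from 141, 200.3 and 229.8 to 661, 513 and 459.6 CPM (1.52 ± 0.19, adjusted p = 9.36e-06), and GADD45A from 40.8, 48.1 and 41.7 to 77.6, 78.5 and 66.2 CPM (0.77 ± 0.12, adjusted p = 8.31e-05). CDKN1A, which encodes the CDK inhibitor p21, read 149, 196 and 255 CPM with the inhibitor alone and 341, 276 and 233 CPM with IAA. Its arms overlapped and it did not pass (0.50 ± 0.20, adjusted p = 0.103), but it did on the TPM scale and without the inhibitor-alone library of clone 9. MDM2, a ubiquitin ligase, rose by 0.44 ± 0.10 (adjusted p = 0.0059), a call lost without the IAA library of clone 1. Of 54 p53 target genes tested 12 rose, 3 fell and 39 did not pass, with a median of 0.19. On the TPM scale 18 of these targets rose and 1 fell. Of 12 core genes of the p53 pathway 1 rose and 2 fell, with a median of -0.15. Over all genes 7.06% rose and 6.39% fell. Of 35 genes of the integrated stress response 6 rose and 4 fell, but 8 rose and 1 fell on the TPM scale. With 1 library left out, 3 to 5 rose and 2 to 5 fell, the fewest rises being without the IAA library of clone 1. DDIT3 (CHOP) read 4.4, 4.48 and 3.33 CPM with the inhibitor alone and 12.8, 11.4 and 9.49 CPM with IAA (1.47 ± 0.20, adjusted p = 2e-05) and PPP1R15A (GADD34) rose by 1.13 ± 0.20 (adjusted p = 0.000399), while ATF4 read 207, 217 and 235 CPM with the inhibitor alone and 237, 229 and 221 CPM with IAA (0.06 ± 0.14, adjusted p = 0.871). Of 22 immediate early genes 6 rose and 1, MYC, fell. JUN read 25.7, 27.7 and 33.8 CPM with the inhibitor alone and 74.4, 94 and 95.8 CPM with IAA (1.61 ± 0.20, adjusted p = 1.23e-05), and MYC 752, 779 and 923 CPM with the inhibitor alone and 497, 519.9 and 503 CPM with IAA (-0.69 ± 0.13, adjusted p = 0.000626). Among 10 genes of the aryl hydrocarbon receptor list, 4 rose and NQO1 fell: AHRR, the receptor's repressor, by 1.35 ± 0.14 (adjusted p = 3.97e-07) and CYP1B1 by 1.91 ± 0.30 (adjusted p = 0.000159), with TIPARP and ALDH1A3 at 0.67 and 0.77. CYP1A1 read 1.47, 2.78 and 1.53 CPM with the inhibitor alone and 3.82, 2.43 and 2.47 CPM with IAA, with overlapping arms (0.57 ± 0.44, adjusted p = 0.478).

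Cell-cycle genes fell with IAA although both arms had a drug that restrains the cycle. All 55 genes of mitosis and G2/M had negative changes and 50 fell, with a median of -0.99. All 53 DNA replication genes were negative (51 on the TPM scale) and 40 fell, with a median of -0.61. On the TPM scale with limma 34 of the mitosis genes and 21 of the replication genes fell. CCNB1, the mitotic cyclin B1, read 171, 163 and 147 CPM with the inhibitor alone and 86.5, 75.7 and 90.0 CPM with IAA (-0.94 ± 0.17, adjusted p = 0.000478). AURKB, a kinase of chromosome segregation, read 38.2, 40.0 and 39 CPM with the inhibitor alone and 12.3, 17.7 and 18.4 CPM with IAA (-1.28 ± 0.14, adjusted p = 1.93e-06), and the proliferation marker MKI67 649, 584 and 616 CPM with the inhibitor alone and 284, 242 and 321 CPM with IAA (-1.14 ± 0.19, adjusted p = 0.000236). Among replication genes, the helicase subunits MCM2, MCM4 and MCM7 fell by 0.51, 0.76 and 0.51 on the log2 scale, of which MCM2 and MCM4 did not pass on the TPM scale. PRIM1, a primase subunit, fell by 1.25 ± 0.17 (adjusted p = 2.9e-05). PCNA, the sliding clamp, read 139, 129 and 136 CPM with the inhibitor alone and 95, 95.9 and 88 CPM with IAA (-0.53 ± 0.09, adjusted p = 0.000211).

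The inhibitor's own targets did not pass the test. CDK4 read 103, 122 and 103 CPM with the inhibitor alone and 112, 95.7 and 89.8 CPM with IAA (-0.14 ± 0.12, adjusted p = 0.537) and CDK6 301, 337 and 218 CPM with the inhibitor alone and 313, 396 and 266 CPM with IAA (0.19 ± 0.13, adjusted p = 0.406), with overlapping arms for both. CCND1, cyclin D1, read 1373, 1404 and 1658 CPM with the inhibitor alone and 1384, 1287 and 1514 CPM with IAA (-0.08 ± 0.09, adjusted p = 0.627). RB1 changed by -0.31 ± 0.14 (adjusted p = 0.181). CCNE1, cyclin E1 of the next step, fell by 0.53 ± 0.14 (adjusted p = 0.0143), a call lost on the TPM scale and without the IAA library of clone 7. The repressor E2F8 fell by 0.89 ± 0.16 (adjusted p = 0.000429) (not on the TPM scale), and E2F1 read 11.4, 14.8 and 18.1 CPM with the inhibitor alone and 12.2, 14.6 and 13 CPM with IAA (-0.15 ± 0.20, adjusted p = 0.726). Chromatin proteins that are known to be lost in senescent cells fell too: LMNB1, lamin B1, from 113, 127 and 112 to 53, 54.4 and 54.3 CPM (-1.12 ± 0.13, adjusted p = 2.18e-06), HMGB2 from 228, 251 and 205 to 65.6, 74.4 and 82 CPM (-1.64 ± 0.21, adjusted p = 1.31e-05) and HMGB1 by 1.02 ± 0.13 (adjusted p = 1.25e-05).

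Some genes of DNA repair fell as well. XRCC6, which encodes the partner subunit Ku70, read 801, 793 and 672 CPM with the inhibitor alone and 466, 460.5 and 541 CPM with IAA (-0.63 ± 0.10, adjusted p = 0.000227), and PRKDC, the DNA-PK catalytic subunit, 1151, 1172 and 892 CPM with the inhibitor alone and 776, 800.2 and 846 CPM with IAA (-0.41 ± 0.11, adjusted p = 0.0185). The call of PRKDC was lost on the TPM scale and without the library of clone 1 or clone 7 in either arm. Of 16 end-joining genes 3 fell and 1 rose, DCLRE1C (0.53 ± 0.12, adjusted p = 0.00475), which encodes the nuclease Artemis, whereas on the TPM scale 1 fell and 3 rose. Over all genes 7.06% rose and 6.39% fell. A rise of 1 gene among 16, or among the 22 retroelement-silencing genes below, is no more than that share. Of 30 genes of homologous recombination and the Fanconi pathway 12 fell, but 2 did on the TPM scale and 7 without the inhibitor-alone library of clone 1. FANCD2 read 62.5, 57.7 and 49.2 CPM with the inhibitor alone and 23.8, 25.9 and 28.8 CPM with IAA (-1.12 ± 0.14, adjusted p = 9.42e-06). POLQ, the polymerase of alternative end joining, fell by 0.82 ± 0.18 (adjusted p = 0.00277), but not on the TPM scale. HELLS, DNMT1 and UHRF1, which maintain DNA methylation and silence repeats, fell by 1.099, 0.65 and 0.56 on the log2 scale, and 7 of 22 retroelement-silencing genes fell while 1, DNMT3A, rose. On the TPM scale 4 of that list fell and none rose. TERT, the telomerase reverse transcriptase, read 7.45, 8.15 and 4.36 CPM with the inhibitor alone and 3.06, 2.76 and 1.65 CPM with IAA and did not pass (-1.47 ± 0.53, adjusted p = 0.0683), though it did with DESeq2, on the TPM scale and in a fit of only the compared groups.

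Metabolic and translation genes fell in smaller steps. The share of all genes that fell was 6.39% by edgeR, and 411 of 18877 fell on the TPM scale. De novo nucleotide synthesis gave 14 falls among 22 genes (5 on the TPM scale, and 8 without the inhibitor-alone library of clone 1 or the IAA library of clone 7). CAD, the enzyme of the first steps of pyrimidine synthesis, read 195, 203 and 206 CPM with the inhibitor alone and 125, 125 and 132 CPM with IAA (-0.66 ± 0.11, adjusted p = 0.000221, lost on the TPM scale), and TYMS, thymidylate synthase, fell by 0.92 ± 0.14 (adjusted p = 0.000142). Of 15 serine, asparagine and one-carbon genes 7 fell (3 on the TPM scale), among them PHGDH (-0.87 ± 0.20, adjusted p = 0.00492) and MTHFD1 (-0.72 ± 0.10, adjusted p = 2.47e-05). EIF3B, a scaffold subunit of the initiation factor eIF3, read 342, 324 and 276 CPM with the inhibitor alone and 90.9, 89.7 and 124 CPM with IAA (-1.65 ± 0.13, adjusted p = 6.79e-09). It was the only eIF3 gene among the 15 largest falls. EIF3L fell by 0.69 on the log2 scale, EIF3A and EIF3E passed but lost their calls on the TPM scale and without clone 1 or 7 in either arm (EIF3E also without the IAA library of clone 9 and with only the compared groups), and the other 9 of 13 eIF3 subunits did not pass. MRPS35, a mitochondrial ribosomal protein, read 79.1, 77.6 and 69.7 CPM with the inhibitor alone and 36.3, 37.7 and 40.7 CPM with IAA (-0.98 ± 0.13, adjusted p = 1.28e-05), and 11 of 50 mitochondrial ribosomal protein genes fell (5 on the TPM scale, and 7 without the IAA library of clone 9). Cytosolic ribosomal protein genes had no direction that held across scales: 10 of 46 fell with a median of -0.22, but none fell, 1 rose and the median was 0.014 on the TPM scale. Without the inhibitor-alone library of clone 7, or the IAA library of clone 1 or 9, 5 or 6 fell.

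Most of the largest falls, though not that of EIF3B, lay outside these lists. TNFSF18, the ligand of the receptor GITR, went from 481 to 7 summed counts (ratio 0.0206, interval 0.00824 to 0.0428). CYP24A1, the enzyme that inactivates vitamin D, read 421, 371 and 372 CPM with the inhibitor alone and 57.9, 91.3 and 55.8 CPM with IAA (-2.54 ± 0.20, adjusted p = 8.41e-09). SUSD2, a cell-surface sushi-domain protein, read 47, 66.9 and 96.7 CPM with the inhibitor alone and 6.7, 7.03 and 14.2 CPM with IAA (-2.94 ± 0.39, adjusted p = 2e-05). RGS2, a regulator of G-protein signalling, fell by 2.19 ± 0.29 (adjusted p = 2.01e-05), TGM2, a transglutaminase, by 1.88 ± 0.27 (adjusted p = 4e-05), and CAV1, the coat protein of caveolae, read 302, 321 and 349 CPM with the inhibitor alone and 89.5, 107 and 116 CPM with IAA (-1.65 ± 0.13, adjusted p = 7.62e-09). ABCC2, an export pump, read 136, 127 and 137 CPM with the inhibitor alone and 37.3, 33.1 and 62.9 CPM with IAA (-1.65 ± 0.15, adjusted p = 8.9e-08). The rest of the 15 were CENPV, GRIN2B, LINC00173, LINC02331, PEG10, RUNX2, SYT13 and EIF3B. PEG10 and GRIN2B did not pass on the TPM scale, and LINC02331 lost its call without the inhibitor-alone library of clone 1 or the IAA library of clone 7 or 9. GRIN2B was the only one of these whose arms overlapped, at 38.9, 9.75 and 32.1 CPM with the inhibitor alone and 12.5, 3.51 and 9.07 CPM with IAA.

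**Figure D2:**
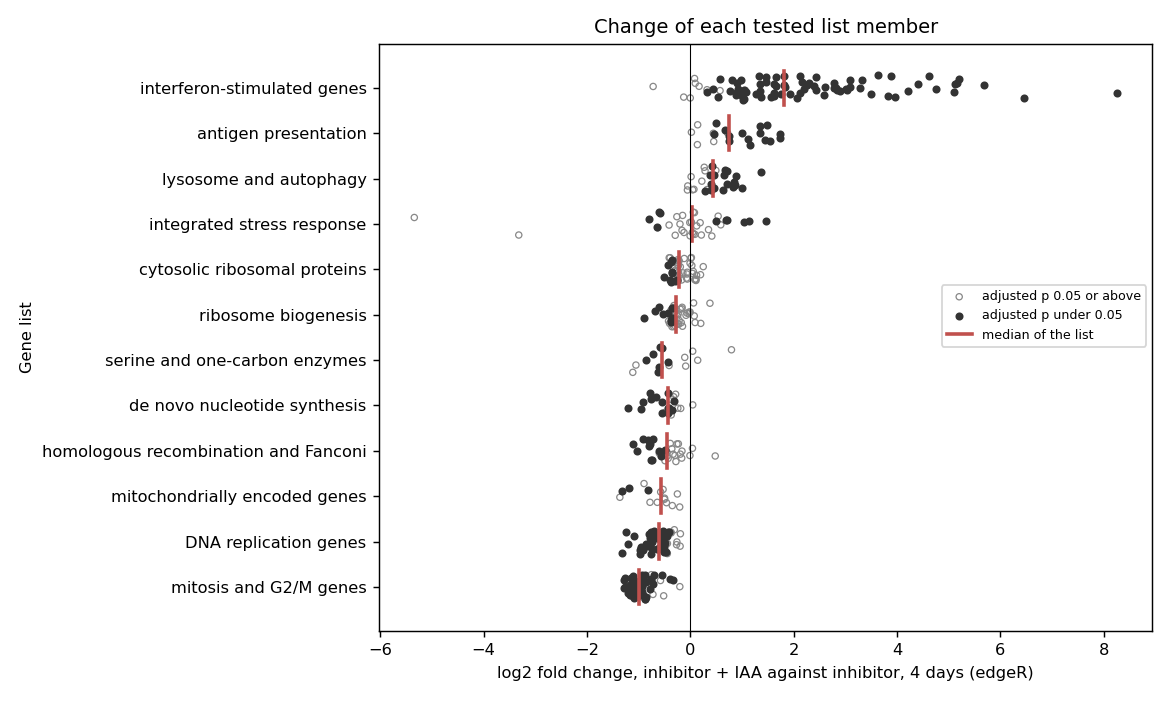
Log2 fold change (inhibitor with IAA against inhibitor alone, 4 days) of each tested member of 12 gene lists; filled points passed the test, open points did not, and red bars are list medians. The medians run from 1.82 for interferon-stimulated genes to -0.99 for mitosis genes. That of mitochondrially encoded genes, -0.57, was -0.06 without the inhibitor-alone library of clone 9.

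Whether the inhibitor alters the response to Ku80 loss was tested as a difference between 2 responses: IAA with the inhibitor at 4 days minus IAA without it at 4 days. The response without the inhibitor had no 4-day DMSO control of these clones and rests on 2-day DMSO libraries, so time in culture cannot be told apart from that response. The 2 responses share no library. They differed for 1186 genes (6.28%), 545 with a higher value under the inhibitor (2.89%) and 641 with a lower one (3.4%). On the TPM scale 82.4% of 1609 calls were higher, against 46% here, and the median of all genes stood at 0.127 in place of -0.05. In a fit of only the compared groups 384 genes differed, and leaving out 1 library at a time gave 598 (without the DMSO library of clone 9) to 2294 (without the 4-day IAA library of clone 1).

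Replication and mitosis genes fell less with the inhibitor than without it. Without the inhibitor all 53 replication and all 55 mitosis genes fell, with medians of -1.43 and -1.77, against 40 and 50 with it, where 15.7% and 6.39% of all genes fell. The difference itself passed for 31 replication genes and 22 mitosis genes, all toward a smaller fall, and for 19 and 11 without the inhibitor-alone library of clone 9. Without the IAA and inhibitor library of clone 1, 14 mitosis genes passed. MCM2 read 202, 229 and 242 CPM with DMSO and 68.1, 57.3 and 64.1 CPM with IAA alone, against 152, 149 and 148 CPM with the inhibitor and 107, 106 and 102 CPM with both, a difference of 1.31 ± 0.17 (adjusted p = 0.000122). The inhibitor arms thus lay between DMSO and IAA alone. MCM7 and UHRF1, a reader of hemimethylated DNA, differed by 1.28 ± 0.17 (adjusted p = 0.000166) and 1.05 ± 0.15 (adjusted p = 0.000272), and the histone variant H2AZ1 by 1.45 ± 0.18 (adjusted p = 7.02e-05). CCNB1 read 216, 239.6 and 229 CPM with DMSO and 37.7, 39.9 and 63 CPM with IAA alone, and its responses differed by 1.36 ± 0.24 (adjusted p = 0.00119). EIF3B fell by 2.79 without the inhibitor and by 1.65 with it, a difference of 1.13 ± 0.18 (adjusted p = 0.000503).

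ASNS, asparagine synthetase, read 150.0, 207 and 159.9 CPM with DMSO and 32, 44.1 and 38.8 CPM with IAA alone, and differed by 1.59 ± 0.23 (adjusted p = 0.00027). Of 15 serine, asparagine and one-carbon genes 7 had a smaller fall with the inhibitor and 1 differed the other way. Across all genes 2.89% were higher and 3.4% lower. The count of 7 became 5 without the inhibitor-alone library of clone 9, and also with only the compared groups. PHGDH and PSAT1 differed by 1.90 ± 0.29 (adjusted p = 0.000345) and 1.55 ± 0.26 (adjusted p = 0.000801). The remaining genes named by the rule for a higher response were GSTP1, a glutathione transferase (1.03 ± 0.13, adjusted p = 0.000122), the chaperone HSPA1B (1.30 ± 0.17, adjusted p = 0.000122), the glycolytic enzyme PFKM (0.94 ± 0.13, adjusted p = 0.00027) and the respiratory complex I genes NDUFAB1 (1.418 ± 0.19, adjusted p = 0.000191) and NDUFS3 (1.20 ± 0.16, adjusted p = 0.000122). HSPA1B has a nearly identical neighbour copy, so its reads are uncertain. With the inhibitor none of GSTP1, HSPA1B, PFKM, NDUFAB1 and NDUFS3 passed the test for a change, and all 5 fell without it, with changes from -1.42 to -1.03.

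Other genes had a lower response under the inhibitor. KLK7, a secreted peptidase, rose from 51.6, 38 and 42.3 CPM with DMSO to 212, 176 and 187 CPM with IAA alone. With the inhibitor it read 373, 335 and 391 CPM before and 404, 329 and 429 CPM after IAA, a difference of -2.06 ± 0.19 (adjusted p = 3.26e-06). KLF5, a factor of gut epithelium, rose without the inhibitor (1.35) and fell with it (-0.52, a call lost on the TPM scale), a difference of -1.87 ± 0.18 (adjusted p = 3.78e-06). CDH1, E-cadherin, rose in both settings, by 1.65 and 0.69, and differed by -0.95 ± 0.12 (adjusted p = 7.02e-05). NT5E, the ectonucleotidase CD73, read 644, 688 and 691 CPM after IAA alone and 193, 192 and 205 CPM after both, with a difference of -1.60 ± 0.19 (adjusted p = 6.32e-05). AGPAT4, SLFN5, C1RL, TCF7, ZFP36L1 and HMGA2 differed by -2.03, -1.66, -1.75, -1.12, -1.76 and -1.18 on the log2 scale, of which C1RL did not pass on the TPM scale. Of these, AGPAT4 and SLFN5 rose in both settings and HMGA2 rose without the inhibitor and fell with it.

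**Figure D3:**
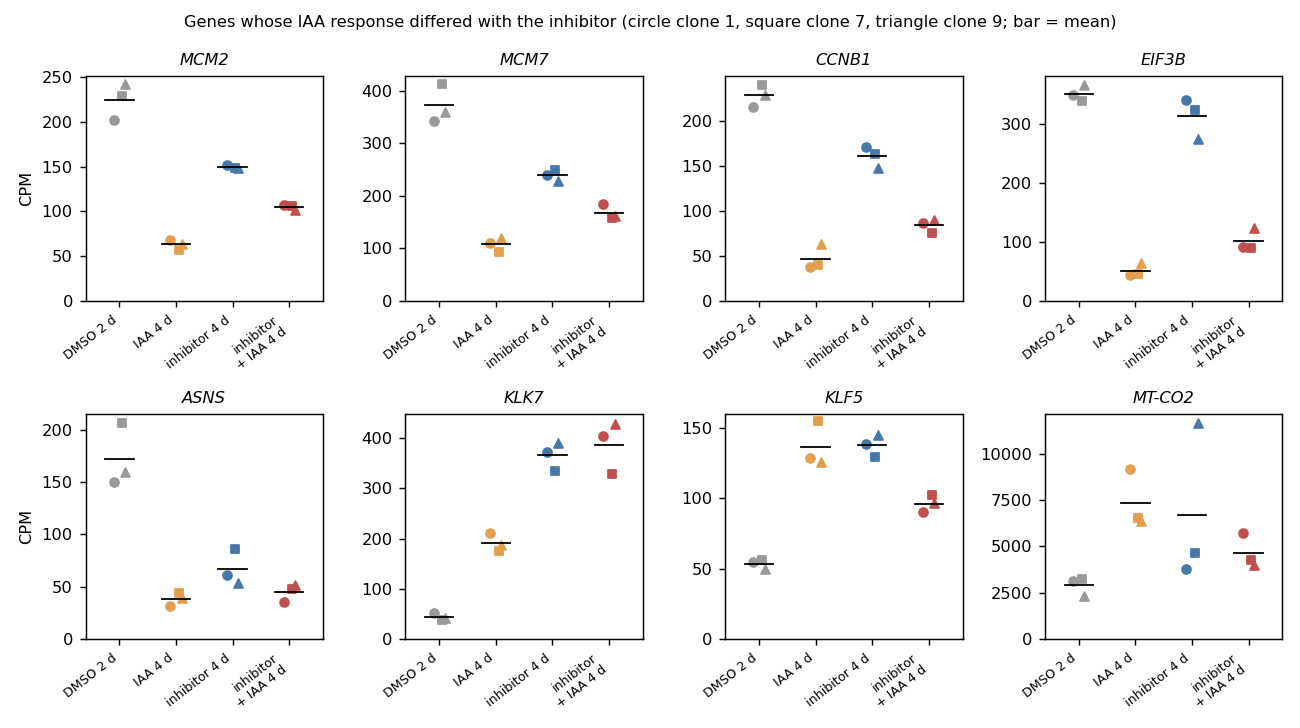
Level in CPM of 8 genes in each library of 4 groups: DMSO for 2 days, IAA for 4 days, and the inhibitor for 4 days without and with IAA; black bars are group means. For MCM2, MCM7 and CCNB1 the inhibitor groups lie between DMSO and IAA alone, and for MT-CO2 the high point of the inhibitor group is clone 9.

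Interferon-stimulated genes rose in both settings. Without the inhibitor 76 of 84 rose, with a median of 2.14, where 18.3% of all genes rose. With it the count was 75 and the median 1.82, where 7.06% of all genes rose. The difference passed for 1 gene toward a higher response, LAP3, and for 6 toward a lower one: RIGI, PARP9, DTX3L, PARP12, SAMD9 and SLFN5. Over all genes 2.89% were higher and 3.4% lower. On the TPM scale 7 were higher and 1 lower, and the median difference was 0.109 in place of -0.25, so no direction of the list held across scales. RIGI read 8.99, 13.6 and 8.92 CPM with DMSO and 122, 121 and 131 CPM with IAA alone, and its responses differed by -1.17 ± 0.27 (adjusted p = 0.0111), a call that did not hold on the TPM scale. Its level with the inhibitor alone lay above all DMSO libraries, and its level after IAA with the inhibitor was above that after IAA alone. IFI6, IFIT1 and OAS3 differed by -0.78 ± 0.28, 0.14 ± 0.27 and 0.46 ± 0.15, none of which passed. IFI6 did pass without the IAA and inhibitor library of clone 7, and OAS3 on the TPM scale, with DESeq2 and without the 4-day IAA library of clone 1. Mitochondrially encoded genes rose without the inhibitor (13 of 15, median 1.03) and none rose with it, where MT-RNR1, MT-RNR2 and MT-ND6 fell. With 1 library left out, 3 to 8 fell, with 6 without clone 1 in either arm and 8 without the inhibitor alone in clone 7. Without a count filter 13 fell. The list median with the inhibitor was -0.57, with all 15 changes negative. Leaving out the inhibitor-alone library of clone 9 brought that median to -0.06, with 4 changes positive and 3 falls called. The difference passed for 14 of 15, with a median of -1.53, for 4 in a fit of only the compared groups, for 9 without the IAA and inhibitor library or the DMSO library of clone 9, and for 11 with a median of -1.02 without the inhibitor-alone library of clone 9. MT-CO2, a subunit of cytochrome c oxidase, read 3769, 4637 and 11675 CPM with the inhibitor alone and 5705, 4260.3 and 3986 CPM with IAA, where the highest control value is that library. Its change passed without the inhibitor-alone library of clone 1.

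Time on the inhibitor was examined by the difference between the IAA responses at 4 and at 2 days. The 2-day libraries came from clones 1 and 9. They lay on the other side of the first principal component (43.9% of the variance), which separated 18 libraries, including all 4-day ones of these clones, from 14 others. The labels name no batch, and each of the 2 responses lies within 1 side. The 2-day inhibitor libraries had 24603 to 25790 genes detected and the 4-day ones 19313 to 21899. The 2-day DMSO libraries lay on the side of the 4-day ones. Time on the inhibitor therefore cannot be told apart here from whatever separates the 2 sides. The responses differed for 23 genes, all higher at 4 days (0.122%). No gene was lower, 468 of all genes had an unadjusted p under 0.05 in either direction, and DESeq2 called 54, of which 8 were lower at 4 days. Without a count filter 35 of 104 calls were lower. Of the 23, 19 were interferon-stimulated genes, HLA-B and TAP2 belong to antigen presentation, and LAMP3 and CENPT were on no list; CENPT was named after its values were seen.

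At 2 days on the inhibitor 12 of 84 interferon-stimulated genes rose, with a median of 0.61, where 0.551% of all genes rose and 0.323% fell. In the 2-day libraries IFI6 read 9.23 and 10.5 CPM with the inhibitor alone and 51.4 and 36.7 CPM with IAA added, and its responses differed by 3.01 ± 0.29 (adjusted p = 3.95e-06). IFIT1 read 6.07 and 6.1 CPM and 17.7 and 14.2 CPM at 2 days (2.82 ± 0.29, adjusted p = 8.49e-06). USP18 and LAMP3 read 5.57 and 5.46 against 5.56 and 6.47 CPM and 2.49 and 2.07 against 2.39 and 2.28 CPM at that time, control against IAA, and differed by 2.69 ± 0.26 (adjusted p = 3.95e-06) and 3.15 ± 0.34 (adjusted p = 1.65e-05). OAS3 read 50.2 and 58 CPM and 67.5 and 65.9 CPM (2.12 ± 0.18, adjusted p = 6.13e-07). PARP9, PARP14, DTX3L and the membrane scramblase PLSCR1 differed by 1.52 ± 0.22, 1.31 ± 0.16, 1.15 ± 0.17 and 1.49 ± 0.19, of which PARP9 and DTX3L did not pass without the 2-day IAA library of clone 9, nor DTX3L without the 2-day control of clone 1. RIGI, by contrast, read 10.3 and 7.36 CPM and 37.5 and 28.2 CPM at 2 days, and its responses did not pass (0.49 ± 0.31, adjusted p = 1). CEMIP rose at 2 days by 3.27 and at 4 days by 4.67 (1.40 ± 0.35, adjusted p = 0.222). CYP24A1 read 399.8 and 292 CPM and, after IAA, 159 and 108 CPM at 2 days (-1.16 ± 0.30, adjusted p = 0.288, called with DESeq2, as was the difference of CEMIP), and EIF3B 446 and 474 CPM and 147 and 195 CPM (-0.21 ± 0.19, adjusted p = 1). Leaving out 1 library at a time gave 9 to 23 genes, with 10 and 13 without the 2-day control of clone 1 or 9, and 13 and 9 without the 2-day IAA library of clone 1 or 9. Among interferon-stimulated genes the count was 8 to 12 without any 1 of these 4.

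**Figure D4:**
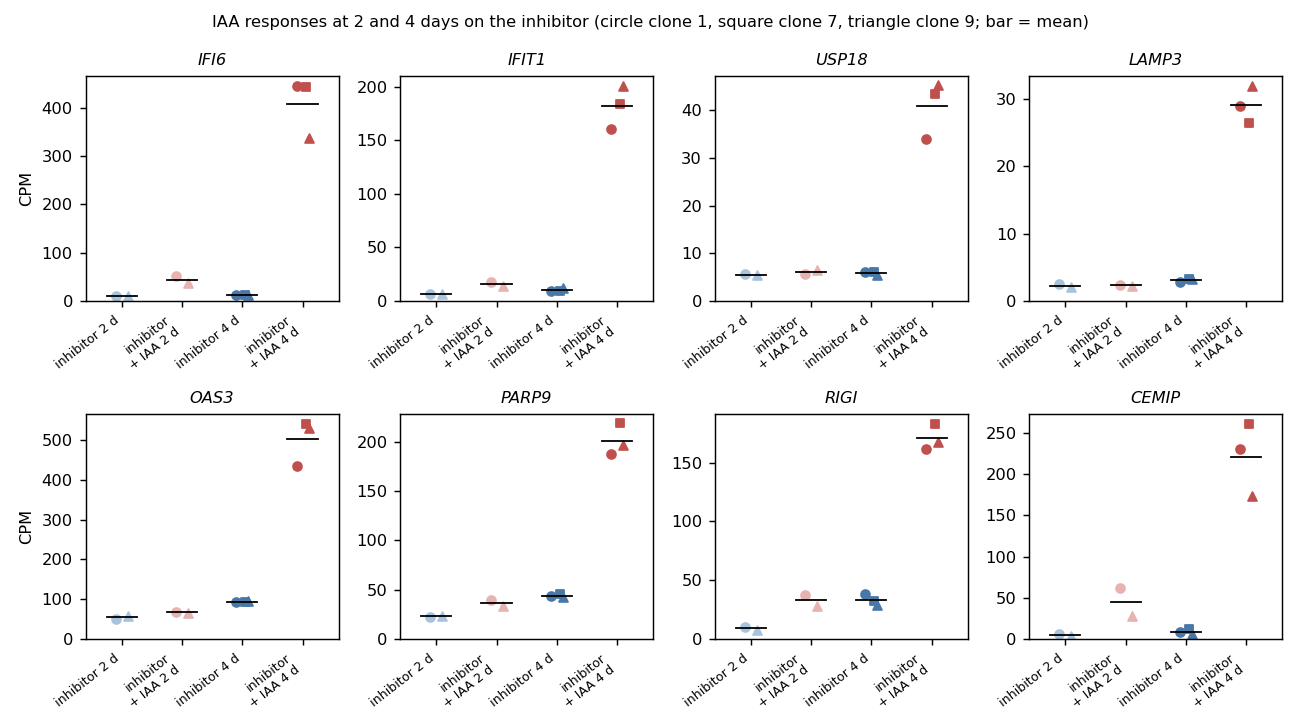
Level in CPM of 8 genes in each library with the inhibitor, without and with IAA, at 2 days (clones 1 and 9, pale) and 4 days (clones 1, 7 and 9, dark); black bars are group means. The 4-day libraries with IAA are the highest for every gene drawn and lie at 34 to 45.3 CPM for USP18 against 5.56 and 6.47 CPM at 2 days with IAA. The 2-day and 4-day libraries drawn also lie on opposite sides of the first principal component.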

How the data were processed

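TruSeq libraries of poly-A RNA were sequenced, per the labels' protocols. Estimated counts and TPM per gene were deposited for these cells in separate tables. The submitters' processing notes name Salmon 1.10.2, kallisto 0.50.0, DESeq2 and GRCh38, without saying which tool made which table, and for the annotation and strand setting the sources used here give nothing. Both tables hold 61228 genes by identifier, of which 20357 have an Ensembl identifier and no other name.

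Estimated counts were rounded and tested with edgeR 4.0.16 in R 4.3.3 (quasi-likelihood test, TMM, filterByExpr with a minimum of 10 counts) over 32 libraries in 12 groups, with clone as a block and 16 residual degrees of freedom. The biological coefficient of variation was 19.5%. Benjamini-Hochberg adjusted p-values were called at 0.05. The clone numbers pair the arms by origin, while same-clone deviations from the arm means correlated by -0.00478, 0.166 and -0.00387 (clones 1, 7 and 9). The p-values measure the spread left after group and clone are fitted, pooled over the 32 libraries. All of these clones come from 1 line. Named genes were the 15 largest changes each way with at least 5 CPM in 1 arm, up to 6 called genes per list, a set of reference genes of the pathways, and the 10 calls each way with the lowest p in each difference. The members and the 43 lists were chosen with earlier results of these data known. On simulated counts for IAA with the inhibitor at 4 days (18877 genes, 200 changed), 65% of 2-fold and 84% of 4-fold changes were recovered, with 4 false calls. Apart from these changes the simulation had 1 mean per gene, with no clone, group or outlying-library effects. These rates need not hold for the real libraries.

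CPM are TMM-scaled. Ratios of summed counts carry 95% exact intervals, and these and the floor of 3 counts cover counting error only. Alternatives were RLE scaling, DESeq2 1.42.0, every gene with a count kept, limma 3.58.1 with log2(TPM + 1) or log2(TPM + 0.1), only the compared groups, only MAVS-intact libraries, no clone block, and leaving out each library. Some genes are not reported here. The libraries of other cells are not used here, and those of other genotypes enter only the shared fit.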

Additional observations from a re-analysis of the deposited data

Results flagged for a closer look

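These results are listed because a test found that the response to IAA under the inhibitor at 4 days differed from another response. The comparison was with IAA without the inhibitor for 1186 genes, and with IAA at 2 days on the inhibitor for 23 genes. Of the genes named in the report, those with a higher log2 response under the inhibitor than without it were PHGDH (1.90), ASNS (1.59), PSAT1 (1.55), H2AZ1 (1.45), NDUFAB1 (1.418), CCNB1 (1.36), MCM2 (1.31), HSPA1B (1.30), MCM7 (1.28), NDUFS3 (1.20), EIF3B (1.13), UHRF1 (1.05), GSTP1 (1.03) and PFKM (0.94). Those with a lower one were KLK7 (-2.06), AGPAT4 (-2.03), KLF5 (-1.87), ZFP36L1 (-1.76), C1RL (-1.75), SLFN5 (-1.66), NT5E (-1.60), HMGA2 (-1.18), RIGI (-1.17), TCF7 (-1.12) and CDH1 (-0.95). For MCM2, MCM7, CCNB1, UHRF1, H2AZ1 and EIF3B a higher response is a smaller fall.

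Between 4 and 2 days on the inhibitor, the named genes with a higher response at 4 days were LAMP3 (3.15), IFI6 (3.01), IFIT1 (2.82), USP18 (2.69), OAS3 (2.12), PARP9 (1.52), PLSCR1 (1.49), PARP14 (1.31) and DTX3L (1.15).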

How the results depend on the processing

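Of 2738 values of 180 named gene results under the alternatives, 2586 kept direction and side of the threshold, 120 lost the call, 25 gained one and 7 changed sign. The causes of these changes were not tested. Genes changed by IAA with the inhibitor (2538) numbered 1849 and 1852 on the 2 TPM scales. In the other alternatives, apart from leaving out 1 library, they numbered 2098 (only the compared groups) to 3055 (DESeq2). They numbered 1572 to 2397 with 1 library left out. The low counts were 1575 without the inhibitor-alone library of clone 1, and 1595 and 1572 without the IAA library of clone 1 or 7. Without the replicate block for clone 2119 genes changed, 886 differed from the response without the inhibitor and 20 from that at 2 days, and CCNE1, EIF3E, GRIN2B, IFNGR1, LINC02331, MYC (adjusted p = 0.0551), PRKDC and RUNX2 (adjusted p = 0.0603) lost their calls in edgeR's test. The 1186 differences from the response without the inhibitor became 384 with only the compared groups, 1708 with DESeq2 and 598 to 2294 with 1 library left out: 729 without the inhibitor-alone library of clone 9, 696 and 774 without the IAA and inhibitor library of clone 1 or 7 and 727 without the DMSO library of clone 7, beside those named in the report. The 23 differences between 4 and 2 days became 104 without a count filter, 54 with DESeq2, 17 on log2(TPM + 0.1) and 9 to 23 with 1 library left out. CDKN1A passed without a count filter, on both TPM scales and without the inhibitor-alone library of clone 9. Log2 values that changed sign were CDK4 (0.094 and 0.095 on the TPM scales), MAVS (from -0.039, below 0 without the inhibitor-alone library of clone 1 or 7, or with the IAA library of clone 1 left out) and MT-CO2 (-0.83 to 0.15 with 1 library left out, above 0 without the inhibitor-alone library of clone 9). In the difference from the response without the inhibitor this held for IFIT1 (-0.077 to 0.26 with 1 library left out, below 0 without the IAA and inhibitor library of clone 7). Depth limits genes of few counts, such as the interferon ligands.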

Other observations

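Other lists moved in smaller numbers with IAA under the inhibitor at 4 days, against 7.06% of all genes up and 6.39% down. Of 20 genes of the unfolded protein response 4 rose (2 without the IAA library of clone 1) and none fell, with a median of 0.19. DNAJB9, a chaperone of the endoplasmic reticulum, read 13.5, 13.7 and 12.4 CPM with the inhibitor alone and 22.4, 23.7 and 27.2 CPM with IAA (0.88 ± 0.16, adjusted p = 0.000468), and its relative DNAJB11 rose by 0.55 ± 0.12 (adjusted p = 0.00332). Of 17 cell death genes 4 rose (8 on the TPM scale), among them TNFRSF10B, which encodes the death receptor DR5 and read 135, 154 and 149.8 CPM with the inhibitor alone and 206, 208 and 202 CPM with IAA (0.49 ± 0.09, adjusted p = 0.000994). Of 15 BCL2 family genes 3 rose, against 7 on the TPM scale, 1 without the inhibitor-alone library of clone 1 or the IAA library of clone 9, and none without the inhibitor-alone library of clone 7 or the IAA library of clone 1 or 7. SQLE, squalene epoxidase, read 54.4, 55.7 and 61.8 CPM with the inhibitor alone and 36.1, 37.3 and 43.4 CPM with IAA (-0.56 ± 0.13, adjusted p = 0.00394, lost on the TPM scale).

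Of 43 ribosome biogenesis genes 9 fell and none rose, but 2 fell on the TPM scale, 5 without the inhibitor-alone library of clone 1 or 7, and 15 without that of clone 9. FBL, the methyltransferase fibrillarin, read 133, 125 and 145 CPM with the inhibitor alone and 80.6, 71.2 and 65.5 CPM with IAA (-0.89 ± 0.12, adjusted p = 3.07e-05), a call kept in all 14 alternatives. Of 7 genes of alternative end joining and PARPs 5 fell (1 on the TPM scale), among them the flap nuclease FEN1 (-0.77 ± 0.14, adjusted p = 0.000536) and PARP1 (-0.43 ± 0.08, adjusted p = 0.00043, lost on the TPM scale). None of 12 genes of the signal recognition particle passed. Among intermediate filaments KRT19 rose by 0.71 ± 0.14 (adjusted p = 0.00158) and NES, nestin, changed by -1.12 ± 0.28 (adjusted p = 0.00906), a call lost on the TPM scale and without the inhibitor-alone library of clone 7. Both KRT19 and the carbonic anhydrase gene CA2 (-1.45 ± 0.36, adjusted p = 0.0077) lost their calls without the clone block.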
